A study of Mus musculus with 15 samples.

Results

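Arginine metabolism was followed through 7 genes of sorted mouse liver macrophages, Arg1, Arg2, Nos2, Ass1, Asl, Odc1 and Sat1. They were chosen by name for their place in the pathway, with earlier results of these data known. Their array probes were found through the RefSeq accession given for each probe. That gave 7 of the 20145 genes named on the array and 10 of its 55681 probes, with 3 probes for Odc1, 2 for Ass1 and 1 for each of the other genes. All 10 probes were well above background on all 15 arrays, and all 7 genes were among the 13390 genes tested after a filter on dim probes.

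The study compared F4/80-high macrophages that had been sorted by CD11c, an integrin chain of dendritic cells and of some tissue macrophages, on Agilent one-colour microarrays. NASH CD11c-positive cells and NASH CD11c-negative cells both came from livers of male mice lacking the melanocortin 4 receptor (MC4R-KO), a brain receptor that restrains feeding. These mice had eaten a Western diet for 20 weeks from the age of 8 weeks and had non-alcoholic steatohepatitis (NASH), a fatty and inflamed liver. Wildtype cells were CD11c-negative macrophages of male wildtype mice on standard diet, with no age stated among the labels. Each group had 5 arrays, and the RNA of a sample was a pool of 7 to 9 animals. Genotype and diet differ together between NASH and wildtype mice and cannot be told apart. The MC4R loss is shared by both NASH groups, and a CD11c-positive wildtype group was not analysed here.

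Arginine stands at a branch point in macrophages. Arginase cleaves it to urea and ornithine, and ornithine decarboxylase turns ornithine into putrescine, the starting point of the polyamines, while inducible nitric oxide synthase uses arginine to make nitric oxide and citrulline. Argininosuccinate synthase and argininosuccinate lyase rebuild arginine from citrulline. In mouse macrophages arginase 1 is widely used as a marker of activation by interleukin-4, and inducible nitric oxide synthase as a marker of activation by interferon gamma and bacterial products.

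Levels are log2 signals relative to the 75th percentile of the same array, so 0 marks that percentile and 1 unit is a factor of 2. That percentile lay between 477.6 and 562.4 signal units in NASH CD11c-positive, 358.6 and 403.6 in NASH CD11c-negative and 399.3 and 444.6 in wildtype arrays. The scaling thus differed with the group, and all NASH CD11c-positive arrays had a higher percentile than every other array. Between 45.7% and 58.0% of an array's spots were well above background. The median SD of a gene among 5 arrays was 0.0699 in NASH CD11c-positive, 0.0888 in NASH CD11c-negative and 0.0751 in wildtype cells. Itgax, which encodes CD11c, averaged 7.29 in NASH CD11c-positive, 5.93 in NASH CD11c-negative and 4.21 in wildtype cells. Adgre1, which encodes F4/80, averaged 7.31, 7.74 and 7.34 in the same groups on its brighter probe, while Mc4r was read well above background by no array and so does not check the genotype. Nothing in the labels says that the arrays of a group hold separate pools of mice, so p-values measure only the spread between these arrays, which may be technical. Repeated spots of a probe on 1 array had a median SD of 0.053 to 0.066. For a spot between arrays of a group on 1 slide it was 0.032 to 0.047, and between all 5 arrays of a group 0.067 to 0.084. In such bulk samples fewer cells of a type and less RNA per cell cannot be told apart.

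The median gene moved as well, by 0.13 between NASH CD11c-negative and wildtype cells, by 0.015 between the NASH groups and by 0.16 between NASH CD11c-positive and wildtype cells. With quantile normalization, which makes the signal distributions of the arrays equal, those medians were -0.0028, 0.027 and 0.038. Small differences in the same direction as the median gene are therefore read against that shift. Values with quantile normalization are given beside the results that it moved most.

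In NASH CD11c-negative against wildtype cells, Arg1 was lower and Asl, Odc1 and Sat1 were higher without overlap between the arrays of the 2 groups, while Arg2, Nos2 and Ass1 were higher by no more than 0.17 log2 with overlap. All 7 genes passed limma at an adjusted p under 0.05, 6 upward and 1 downward, where 76.8% of all genes passed, 48.3% upward and 28.5% downward. Groups without overlap were found for 4 of the 7, and for 64.1% of all genes. With quantile normalization 5 passed, 3 upward and 2 downward. The 7 differences had a median of 0.17, against 0.13 over all genes.

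In NASH CD11c-positive against NASH CD11c-negative cells, Arg1, Arg2, Ass1, Asl and Odc1 were higher, Sat1 was lower, and Nos2 did not pass. With quantile normalization 5 of the 7 passed, since Asl did not (limma adjusted p = 0.0633). The count of 6 of 7 stands beside 53.2% of all genes that passed, 29.9% upward and 23.3% downward. Groups did not overlap for 5 of the 7 and for 39.6% of all genes. The median difference of the 7 was 0.20, against 0.015 over all genes.

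In NASH CD11c-positive against wildtype cells, 6 genes were higher and Arg1 did not pass, where 77.6% of all genes passed, 51.4% upward and 26.3% downward. With quantile normalization Sat1 turned to a fall, so that 5 were higher and 1 lower. Groups did not overlap for 5 of the 7, against 69.3% of all genes. These 3 comparisons share groups, so the values of a gene in them are not independent.

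**Figure D1:**
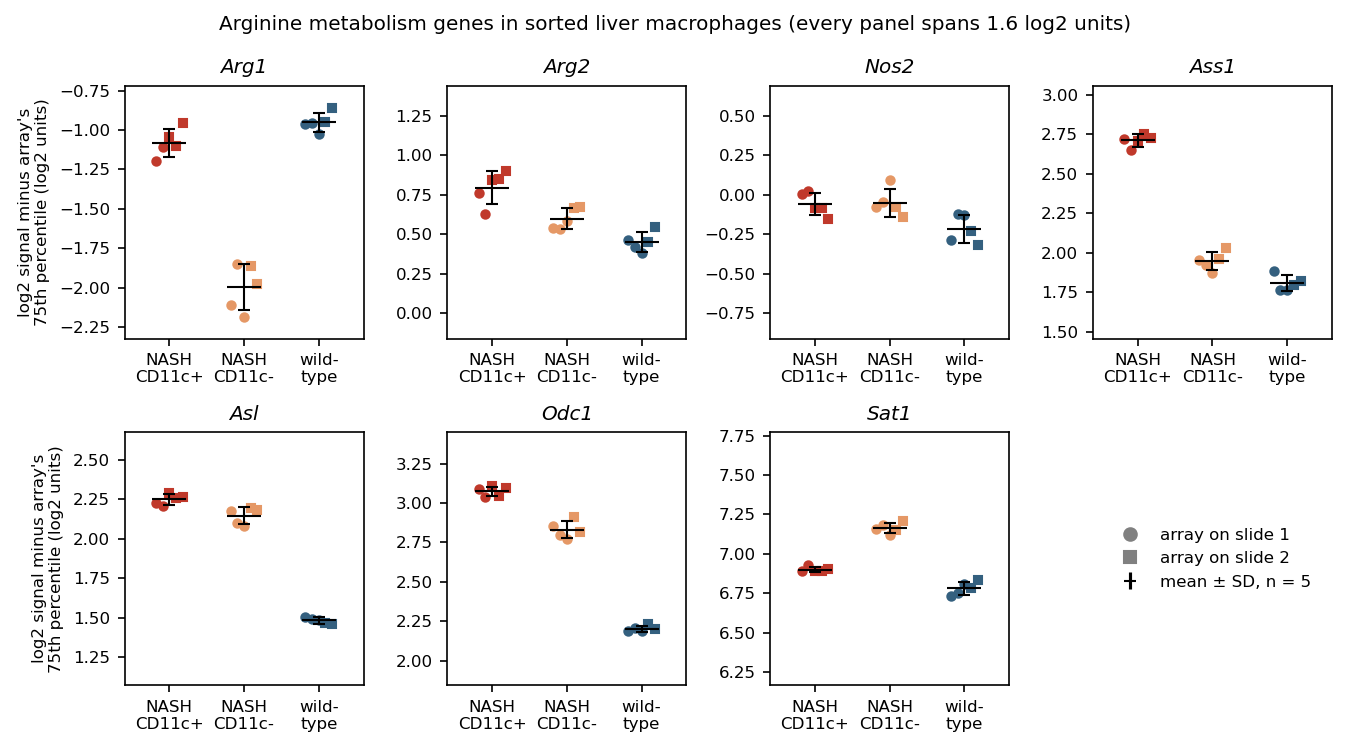
Level of each of the 7 genes on each of the 15 arrays (vertical axis, log2 signal relative to the array's own 75th percentile, every panel 1.6 units tall) for NASH CD11c-positive, NASH CD11c-negative and wildtype cells (horizontal axis). Circles are arrays of slide 1, squares arrays of slide 2, and bars give the mean ± SD (n = 5). Arg1 stands low in NASH CD11c-negative cells alone, Ass1 stands high in NASH CD11c-positive cells alone, and Asl and Odc1 stand higher in both NASH groups than in wildtype cells.

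Arg1 encodes arginase 1, the cytosolic arginase of hepatocytes and of alternatively activated mouse macrophages. On the 5 NASH CD11c-positive arrays it read -1.20, -1.11, -1.04, -1.10 and -0.96. The NASH CD11c-negative arrays read -2.11, -1.85, -2.18, -1.86 and -1.98, and the wildtype arrays -0.96, -0.95, -1.03, -0.95 and -0.86. All 5 NASH CD11c-negative arrays lay below every array of the other groups, whereas NASH CD11c-positive and wildtype arrays overlapped. The group means were -1.08 ± 0.0895 in NASH CD11c-positive, -2.0 ± 0.148 in NASH CD11c-negative and -0.95 ± 0.0594 in wildtype cells (SD, n = 5 each).

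Arg1 was thus 2.06-fold lower in NASH CD11c-negative than in wildtype cells (-1.05 ± 0.0644 log2, SE, 95% interval -1.18 to -0.91, limma adjusted p = 1.57e-09). A difference of that size or more, in either direction, was found for 11% of all genes. In NASH CD11c-positive against NASH CD11c-negative cells Arg1 was 1.88-fold higher (0.91 ± 0.0644, limma adjusted p = 2.92e-08), and 3.61% of genes moved as far. Against wildtype cells the NASH CD11c-positive cells differed by -0.13 ± 0.0644 (95% interval -0.27 to 0.0076), which did not pass (limma adjusted p = 0.0781). That last call depends on the fit, since with slide as a block the difference was -0.15 at a limma adjusted p of 0.0228. The call was also made without NASH CD11c-negative replicate 3 (limma adjusted p = 0.0448) and without NASH CD11c-positive replicate 5 (-0.16, limma adjusted p = 0.0393).

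Each slide held arrays of all 3 groups, and the 2 slides were scanned at different times. NASH CD11c-negative minus wildtype for Arg1 was -1.07 within slide 1 and -1.01 within slide 2, and NASH CD11c-positive minus NASH CD11c-negative was 0.89 and 0.88. A different background correction (normexp) gave smaller sizes, -0.64 and 0.53, with both calls kept. The Arg1 probe read below the 75th percentile of every array.

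The genes with the profile nearest to Arg1 over the 15 arrays, each profile taken relative to its own mean, were Rtl8b, Rhof and Rtl8c. Their root mean square differences from the Arg1 profile were 0.0934, 0.1002 and 0.1010 log2. Rtl8b and Rtl8c are closely related retrotransposon Gag-like genes, so their probes may read each other's transcripts. Rtl8b averaged 4.27 in NASH CD11c-positive, 3.46 in NASH CD11c-negative and 4.42 in wildtype cells.

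Markers of other cells that carry arginase also differed between the groups. Neutrophils, which can also hold arginase 1, were followed by 13 markers measured of 14, and their summed signal (the 75th percentile of the array set to 1) was 651.0 to 684.5 in NASH CD11c-positive, 1594 to 1746 in NASH CD11c-negative and 417.6 to 437.7 in wildtype cells. Of these 13 markers, 12 were higher and 1 was lower in NASH CD11c-negative than in wildtype cells, and 12 were lower in NASH CD11c-positive than in NASH CD11c-negative cells. S100a8 and S100a9, the brightest of them, encode calprotectin subunits and differed by 2.64 and 1.81 between NASH CD11c-negative and wildtype cells, and by -1.74 and -1.13 between the NASH groups. Thus Arg1 was lowest in the group where the neutrophil sum was highest.

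Hepatocytes hold Arg1, Ass1 and Asl for the urea cycle, and the sum of 15 hepatocyte markers was 310.1 to 332.2 in NASH CD11c-positive, 395.4 to 431.1 in NASH CD11c-negative and 352.6 to 377.2 in wildtype cells. The 2 brightest, Trf (transferrin) and Hp (haptoglobin), differed by -0.25 and -1.01 between the NASH groups (-0.093 and -0.94 with quantile normalization), and 13 of the 15 were lower in NASH CD11c-positive than in NASH CD11c-negative cells with none higher. Set against wildtype cells, NASH CD11c-negative cells had 4 of them higher and 8 lower (2 and 10 with quantile normalization), and Hp was higher by 1.73 and Trf by 0.28 (-0.17 with quantile normalization). Cps1, the entry enzyme of the urea cycle and an abundant transcript of hepatocytes, was well above background on no more than 2 of the 5 arrays of any group and was not tested.

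Conventional dendritic cells were followed by 8 markers, whose sum was 101.9 to 112.3 in NASH CD11c-positive, 44.9 to 50.6 in NASH CD11c-negative and 79.3 to 88.4 in wildtype cells. Of the 8, 7 were higher in NASH CD11c-positive than in NASH CD11c-negative cells and 7 were lower in NASH CD11c-negative than in wildtype cells, and Xcr1 was well above background on none of the NASH CD11c-negative arrays. This sum and Arg1 were both lowest in NASH CD11c-negative cells. The macrophage sum of 10 markers measured of 11 was 1951 to 2134 in NASH CD11c-positive, 2482 to 2699 in NASH CD11c-negative and 3144 to 3440 in wildtype cells. Csf1r, the receptor for macrophage growth factor, averaged 8.97, 9.34 and 9.29 in these groups, and its 0.05 between NASH CD11c-negative and wildtype cells turned to -0.22 with quantile normalization. Cd5l, a protein secreted by liver macrophages, averaged 9.36, 9.58 and 9.77, and its -0.23 between the NASH groups turned to 0.12 with quantile normalization. These were the 2 brightest of the 10 macrophage markers. The list mixes general macrophage genes, such as Adgre1 and Csf1r, with Clec4f, Timd4, Vsig4, Marco and Cd5l, which mark resident liver macrophages. Its sum is therefore not a measure of macrophage content, and Adgre1 was highest in NASH CD11c-negative cells. Against wildtype cells, 6 of the 10 fell and 3 rose in NASH CD11c-negative cells (median -0.44, lowest -2.90). In NASH CD11c-positive cells 7 fell and 2 rose against wildtype cells (median -0.37, lowest -4.38). Between the NASH groups 8 fell and 1 rose on the CD11c-positive side (median -0.32).

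Of 12 sinusoidal endothelial markers, 10 were lower in NASH CD11c-negative than in wildtype cells and 10 were lower in NASH CD11c-positive than in NASH CD11c-negative cells. Of 9 T and natural killer cell markers, 7 were lower in NASH CD11c-negative than in wildtype cells and 7 were higher in NASH CD11c-positive than in NASH CD11c-negative cells, with sums of 22.3 to 23.5 in NASH CD11c-positive, 20.7 to 22.2 in NASH CD11c-negative and 35.7 to 36.8 in wildtype cells. Monocyte markers summed to 210.2 to 224.4 in NASH CD11c-positive, 222.4 to 255.9 in NASH CD11c-negative and 108.2 to 119.2 in wildtype cells, and 7 stellate cell markers to no more than 9.74 on any array. The part of these cell types in the differences of the 7 genes was not tested.

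**Figure D2:**
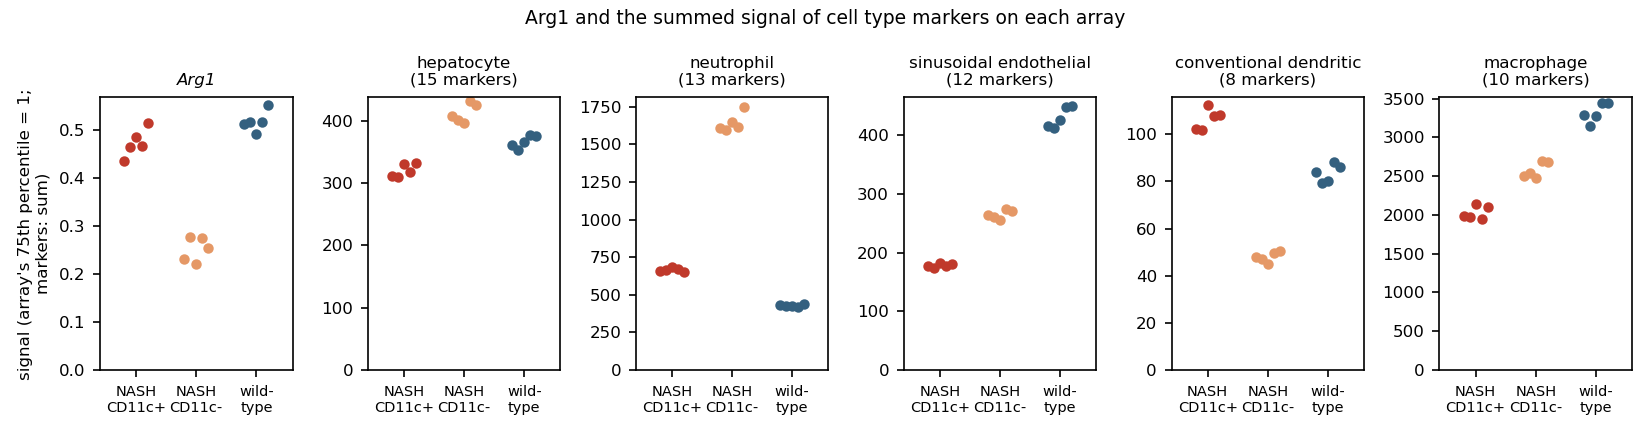
Signal of Arg1 and summed signal of the markers of 5 cell types on each array (vertical axes, linear from 0, the 75th percentile of the array set to 1) for NASH CD11c-positive, NASH CD11c-negative and wildtype cells, with 1 point per array. Arg1 and the dendritic cell sum are lowest in NASH CD11c-negative cells, where the neutrophil sum of 1594 to 1746 and the hepatocyte sum of 395.4 to 431.1 are highest. The hepatocyte sum weighs bright markers most. Against wildtype cells, 8 of its 15 markers fell in NASH CD11c-negative cells and 4 rose (median -0.29).

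Arg2 encodes the mitochondrial arginase that many tissues and myeloid cells express. It read 0.76, 0.63, 0.84, 0.85 and 0.90 in NASH CD11c-positive cells, 0.54, 0.53, 0.59, 0.67 and 0.67 in NASH CD11c-negative cells and 0.47, 0.42, 0.38, 0.45 and 0.55 in wildtype cells. The 2 NASH groups overlapped in replicate 2 of the CD11c-positive cells, and the top wildtype array lay within the NASH CD11c-negative range, but all NASH CD11c-positive arrays were above all wildtype arrays. The difference was 0.34 ± 0.0503 between NASH CD11c-positive and wildtype cells (1.27-fold, limma adjusted p = 1.86e-05) and 0.20 ± 0.0503 between the NASH groups (1.15-fold, limma adjusted p = 0.0043). Between NASH CD11c-negative and wildtype cells it was 0.15 ± 0.0503 (limma adjusted p = 0.0162), which is 0.013 more than the median gene, and that call was lost with quantile normalization (0.10, limma adjusted p = 0.0508) and with normexp (0.13, limma adjusted p = 0.0679). Between NASH CD11c-negative and wildtype cells Arg1 was thus lower by 1.05, while the 0.15 of Arg2 was near the shift of the median gene. Arg1 and Arg2 moved in the same direction between the NASH groups.

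Nos2 encodes inducible nitric oxide synthase. Its probe, which is spotted in 2 places on each array, read 0.0037, 0.02, -0.08, -0.08 and -0.15 in NASH CD11c-positive cells and -0.08, -0.04, 0.10, -0.08 and -0.14 in NASH CD11c-negative cells. Wildtype arrays read -0.29, -0.12, -0.13, -0.23 and -0.32. The NASH groups covered nearly the same range, and each overlapped the upper wildtype arrays.

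Nos2 did not pass between the NASH groups (-0.0094 ± 0.0521, 95% interval -0.12 to 0.10, limma adjusted p = 0.895), and its sign turned to 0.012 with slide as a block. Against wildtype it was higher by 0.17 ± 0.0521 in NASH CD11c-negative cells (limma adjusted p = 0.0091) and by 0.16 ± 0.0521 in NASH CD11c-positive cells (limma adjusted p = 0.0125), where the median gene moved by 0.13 and 0.16. The last call was lost with normexp (0.11, limma adjusted p = 0.0722). The 2 spots of the probe differed from each other by a median of 0.0533 and at most 0.333 on an array. Nos2 was present as a signal in all groups, with group means between -0.22 and -0.05.

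Ass1 encodes argininosuccinate synthase, which joins citrulline to aspartate and limits the rate at which citrulline is turned back into arginine. Its brighter probe read 2.72, 2.65, 2.71, 2.75 and 2.73 in NASH CD11c-positive cells, 1.95, 1.93, 1.87, 1.96 and 2.03 in NASH CD11c-negative cells and 1.89, 1.77, 1.76, 1.80 and 1.82 in wildtype cells. The NASH CD11c-positive arrays stood apart from both other groups, which overlapped each other. Ass1 was 1.70-fold higher in NASH CD11c-positive than in NASH CD11c-negative cells (0.76 ± 0.0334, limma adjusted p = 1.47e-10), and 5.44% of genes moved as far. It was 1.87-fold higher in NASH CD11c-positive than in wildtype cells (0.90 ± 0.0334, limma adjusted p = 3.67e-12), with 16.3% of genes moving as far.

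The second Ass1 probe read 1.65 to 1.71 in NASH CD11c-positive cells, 0.73 to 0.87 in NASH CD11c-negative cells and 0.60 to 0.76 in wildtype cells, and gave 0.86 between the NASH groups and 0.98 between NASH CD11c-positive and wildtype cells. Within slide 1 and slide 2 the NASH groups differed by 0.77 and 0.73. Between NASH CD11c-negative and wildtype cells Ass1 differed by 0.14 ± 0.0334 (limma adjusted p = 0.0014), which is 0.0076 more than the median gene. That small rise was not found with quantile normalization (-0.00049, limma adjusted p = 0.989) and did not pass within slide 1 (0.11, limma adjusted p = 0.0598).

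Asl encodes argininosuccinate lyase, which splits argininosuccinate into arginine and fumarate in the step after Ass1. It read 2.22, 2.21, 2.29, 2.26 and 2.27 in NASH CD11c-positive cells, 2.18, 2.10, 2.08, 2.20 and 2.19 in NASH CD11c-negative cells and 1.51, 1.49, 1.49, 1.47 and 1.46 in wildtype cells. Both NASH groups lay above every wildtype array, and the NASH groups were next to each other with no overlap. Asl was 1.59-fold higher in NASH CD11c-negative than in wildtype cells (0.66 ± 0.0279, limma adjusted p = 2.10e-11; 0.62 within slide 1 and 0.73 within slide 2), and 22.0% of genes moved as far. It was 1.70-fold higher in NASH CD11c-positive than in wildtype cells (0.77 ± 0.0279, limma adjusted p = 3.22e-12). The 1.07-fold difference between the NASH groups (0.10 ± 0.0279, limma adjusted p = 0.0069) was lost with quantile normalization (0.06, limma adjusted p = 0.0633) and within slide 1 (0.10, limma adjusted p = 0.0572).

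The 2 enzymes of the citrulline pathway therefore did not move alike across the 3 groups. Asl was higher in both NASH groups, by 0.66 and 0.77 over wildtype, while Ass1 was higher by 0.90 in NASH CD11c-positive cells and by 0.14 in NASH CD11c-negative cells. Whether the difference of a group differs between these genes was not tested.

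Odc1 encodes ornithine decarboxylase, the first and rate-limiting enzyme of polyamine synthesis. Its brightest probe read 3.09, 3.04, 3.11, 3.04 and 3.09 in NASH CD11c-positive cells, 2.85, 2.80, 2.77, 2.91 and 2.82 in NASH CD11c-negative cells and 2.19, 2.21, 2.19, 2.23 and 2.20 in wildtype cells. The 3 groups were stepped with no overlap, with the wildtype arrays lowest. Odc1 was 1.54-fold higher in NASH CD11c-negative than in wildtype cells (0.63 ± 0.0275, limma adjusted p = 3.44e-11) and 1.83-fold higher in NASH CD11c-positive than in wildtype cells (0.87 ± 0.0275, limma adjusted p = 6.55e-13). NASH CD11c-positive exceeded NASH CD11c-negative cells 1.18-fold (0.24 ± 0.0275, limma adjusted p = 3.97e-06).

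The other 2 Odc1 probes gave 0.62 and 0.76 between NASH CD11c-negative and wildtype cells, and 0.22 and 0.20 between the NASH groups. All 3 probes kept the same order of groups, and each probe's wildtype arrays lay below all its NASH arrays. Within slide 1 and slide 2 the brightest probe differed by 0.61 and 0.65 between NASH CD11c-negative and wildtype cells. With quantile normalization that difference was 0.43, and 24.1% of all genes moved as far as Odc1 in the main processing.

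**Figure D3:**
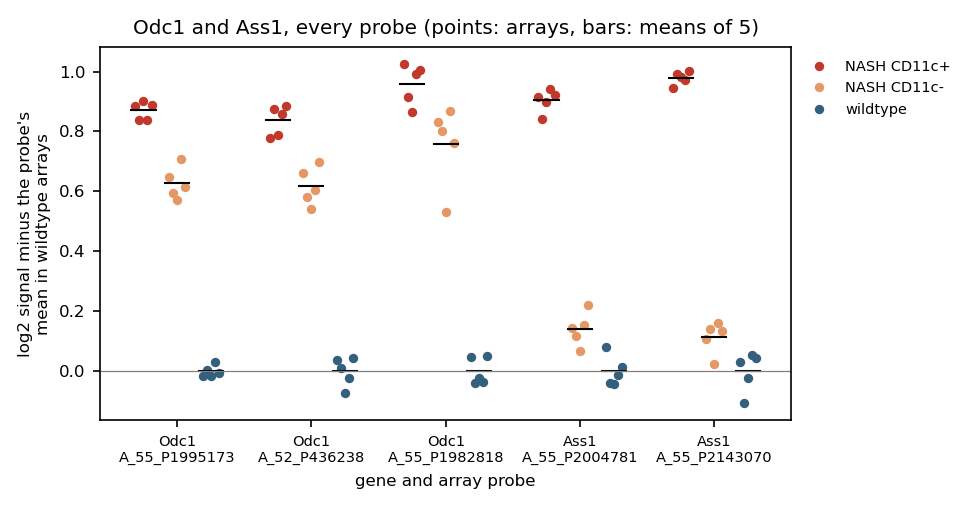
Every probe of Odc1 and Ass1 (horizontal axis, gene and array probe) on every array, as log2 signal minus the mean of that probe in wildtype cells (vertical axis), with points for arrays of NASH CD11c-positive, NASH CD11c-negative and wildtype cells from left to right and bars for means of 5. The 3 Odc1 probes step downward from left to right, with NASH CD11c-negative means of 0.63, 0.62 and 0.76. Both Ass1 probes stand high in NASH CD11c-positive cells alone (0.90 and 0.98).

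Sat1 encodes spermidine/spermine acetyltransferase, which marks polyamines for oxidation or export and so works against Odc1. It read 6.89, 6.93, 6.89, 6.89 and 6.90 in NASH CD11c-positive cells, 7.16, 7.19, 7.12, 7.15 and 7.21 in NASH CD11c-negative cells and 6.73, 6.75, 6.81, 6.78 and 6.84 in wildtype cells. The 3 groups did not overlap, and the NASH CD11c-negative arrays were highest. Sat1 was 1.20-fold lower in NASH CD11c-positive than in NASH CD11c-negative cells (-0.26 ± 0.0254, limma adjusted p = 8.11e-07), which remained with quantile normalization at -0.17.

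Against wildtype the direction of Sat1 depended on the scaling, with 0.38 ± 0.0254 in NASH CD11c-negative cells (1.30-fold, limma adjusted p = 3.68e-09) and -0.07 after quantile normalization (limma adjusted p = 0.0237). In NASH CD11c-positive against wildtype cells it was 0.12 ± 0.0254 (limma adjusted p = 6.13e-04), less than the shift of the median gene, and -0.24 after quantile normalization (limma adjusted p = 1.14e-06). Odc1 and Sat1 thus went in opposite directions between the NASH groups, with Odc1 higher by 0.24 and Sat1 lower by 0.26 in CD11c-positive cells.

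**Figure D4:**
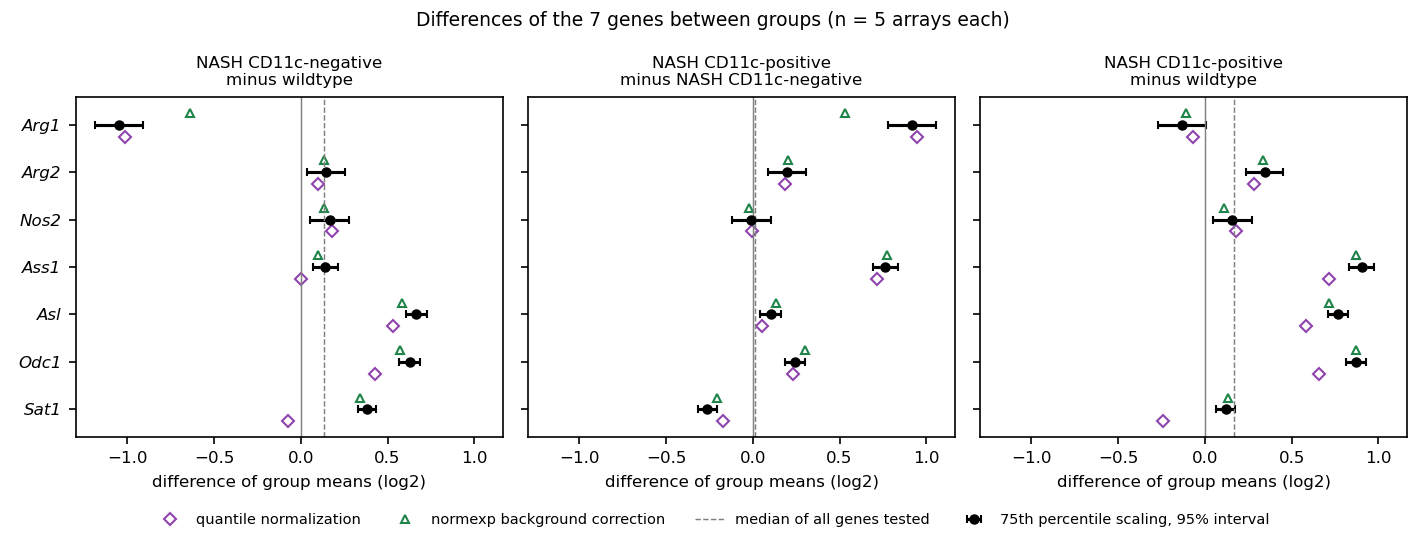
Difference of group means of the 7 genes in the 3 comparisons (horizontal axis, log2, n = 5 arrays per group), with black points and 95% limma intervals for the main scaling, triangles for normexp background correction, diamonds for quantile normalization and a dashed line at the median of all genes tested. Arg1 moves to -0.64 with normexp in NASH CD11c-negative against wildtype cells, and Sat1 crosses 0 with quantile normalization in both comparisons with wildtype.

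Promoter sequence was at hand for 3 of the 7 genes, from RefSeq on mouse build GRCm38.p6, and is shown for those 3. Its relation to the levels of these genes was not tested. Each line gives the 250 bases before the annotated start, 5′ to 3′ on the strand of the gene, with matches to the motifs searched in capitals.
Ass1 (chr2:31470020-31470269, plus strand): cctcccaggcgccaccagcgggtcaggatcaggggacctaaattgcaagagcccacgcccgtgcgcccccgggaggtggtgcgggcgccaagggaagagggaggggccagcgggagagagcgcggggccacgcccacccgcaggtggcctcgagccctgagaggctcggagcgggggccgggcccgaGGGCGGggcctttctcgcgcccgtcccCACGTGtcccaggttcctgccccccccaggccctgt
Odc1 (chr12:17544623-17544872, plus strand): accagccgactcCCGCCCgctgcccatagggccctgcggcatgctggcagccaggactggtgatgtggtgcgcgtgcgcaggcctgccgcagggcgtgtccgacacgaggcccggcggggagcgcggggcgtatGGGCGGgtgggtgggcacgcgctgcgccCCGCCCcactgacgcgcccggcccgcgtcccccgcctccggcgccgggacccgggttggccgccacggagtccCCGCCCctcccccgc
Sat1 (chrX:155216450-155216699, minus strand): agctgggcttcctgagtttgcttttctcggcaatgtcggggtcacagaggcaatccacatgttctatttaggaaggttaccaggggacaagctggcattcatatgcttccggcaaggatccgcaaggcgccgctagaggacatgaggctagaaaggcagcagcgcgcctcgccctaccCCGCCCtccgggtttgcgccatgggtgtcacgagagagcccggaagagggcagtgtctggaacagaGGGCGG

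The motifs searched, each on both strands, began with the E-box CACGTG, which basic helix-loop-helix factors such as Myc bind. The GC box was read as GGGCGG, the letters that Sp factors bind. The TATA box was read as TATAAA and the cyclic AMP response element as TGACGTCA. The AP-1 site was read as TGANTCA, bound by Fos and Jun, and the last was the CCAAT box, named by its own letters. No match overlapped another. Ass1 held 1 E-box, whose first base lies 36 bases before the start, and 1 GC box 63 bases before it. Odc1 held 4 GC boxes, at 238, 116, 88 and 15 bases before the start, and Sat1 held 2, at 72 and 6 bases. Over 32851 RefSeq promoters of this length, 6.02% held the E-box and 32.7% the GC box. The other motifs, held by 12.4% (TATA box), 1.55% (cyclic AMP response element), 6.75% (AP-1) and 33.8% (CCAAT box) of promoters, were not matched in these 3. The share of G and C was 75.6% for Ass1, 80% for Odc1 and 59.6% for Sat1. A match is a description of the letters in this window.

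The rest of the pathway was read from 5 lists with 48 of 57 genes measured. In NASH CD11c-negative against wildtype cells 32 of the 48 were higher, 10 lower and 6 did not pass, with a median of 0.26 against 0.13 over all genes. Of all genes 48.3% were higher and 28.5% lower, and with quantile normalization the split of the 48 was 23 higher and 17 lower. For NASH CD11c-positive against NASH CD11c-negative cells the split was 10 higher, 23 lower and 15 not passed, with a median of -0.12 against 0.015, with shares over all genes of 29.9% upward and 23.3% downward. In NASH CD11c-positive against wildtype cells 30 were higher, 11 lower and 7 did not pass, with a median of 0.21 against 0.16. The shares of all genes were 51.4% and 26.3% there, and quantile normalization gave 21 higher and 18 lower of the 48. Slc7a3, Otc and Ddah1 of these lists passed the filter on dim probes only through the wildtype arrays. Their falls against wildtype cells are therefore not independent of that filter.

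Arginine enters cells through cationic amino acid transporters. Slc7a2 encodes the transporter CAT2, which supplies arginine to activated mouse macrophages. It averaged -0.94 ± 0.105 in NASH CD11c-positive, -1.63 ± 0.174 in NASH CD11c-negative and -3.18 ± 0.215 in wildtype cells (SD, n = 5 each). No array of a group reached into another group, and the differences were 1.56 ± 0.102 between NASH CD11c-negative and wildtype cells (2.94-fold), 0.68 ± 0.102 between the NASH groups (1.61-fold) and 2.24 ± 0.102 between NASH CD11c-positive and wildtype cells (4.72-fold). With normexp the same differences of Slc7a2 were 0.94, 0.41 and 1.34, with all 3 calls kept. Slc7a1, which encodes the widespread transporter CAT1, was 1.82-fold higher in NASH CD11c-positive than in NASH CD11c-negative cells (0.87 ± 0.0440) and 2.84-fold higher than in wildtype cells (1.51 ± 0.0440), and NASH CD11c-negative cells were 1.56-fold higher than wildtype cells (0.64 ± 0.0440).

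Of 9 measured genes for arginine transport and the urea cycle, 6 were higher, 2 lower and 1 did not pass for NASH CD11c-negative against wildtype cells (5 and 3 with quantile normalization). Slc7a7, a subunit of the y+L exporter of cationic amino acids, was higher by 0.83 (0.43 with quantile normalization), and lower by 0.19 in NASH CD11c-positive than in NASH CD11c-negative cells. Slc7a3, another cationic transporter, reached a level well above background on no NASH array and was at least 1.34-fold lower in NASH CD11c-negative and at least 1.70-fold lower in NASH CD11c-positive than in wildtype cells, where 4 of 5 arrays measured it. These bounds set the wildtype mean over 5 arrays against, for each NASH array, the higher of its lowest signal well above background and the probe's own signal. Otc, the ornithine transcarbamylase of the urea cycle, was lower in NASH CD11c-negative and in NASH CD11c-positive than in wildtype cells, but was well above background on only 2 of 5 and 1 of 5 NASH arrays, so the size was not measured. The fitted differences of Otc were -1.79 and -1.87, and -0.51 and -0.80 with normexp. Slc7a3 and Otc, the 2 lower genes of this list in the main processing, passed the filter on dim probes only through the wildtype arrays. Their falls are therefore not independent of that filter. Slc25a2, Slc25a15 and Nags were too dim to be tested.

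Ornithine can also be turned into proline and glutamate. Of 6 such genes measured, 4 were higher and none lower for NASH CD11c-negative against wildtype cells (2 and 1 with quantile normalization). Pycrl, a pyrroline-5-carboxylate reductase, was higher by 0.54, and Oat, ornithine aminotransferase, by 0.19 (-0.05 and not passed with quantile normalization). Of the same 6, 1 was higher and 3 were lower between the NASH groups, with Prodh, proline dehydrogenase, at 0.22 and Aldh18a1, which makes pyrroline-5-carboxylate from glutamate, at -0.22 (-0.17 and not passed within slide 2). Pycrl was lower there by 0.16, a call lost within slide 1 (-0.14, limma adjusted p = 0.173) and when single arrays of either NASH group were left out. Pycrl was higher by 0.38 and Prodh by 0.26 in NASH CD11c-positive than in wildtype cells.

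Of 17 genes for polyamine synthesis, turnover and transport, 12 were higher and 4 lower for NASH CD11c-negative against wildtype cells (9 and 7 with quantile normalization). Smox, spermine oxidase, was higher by 0.90 ± 0.0271 and Eif5a, the translation factor that carries a modification made from spermidine, by 0.84 ± 0.0501 (0.49 with quantile normalization). Sat2, a relative of Sat1, was lower by 0.81, and Slc18b1, a vesicular polyamine transporter, by 1.05 ± 0.133 (-0.53 with normexp). The NASH groups differed with 4 higher and 7 lower (5 and 5 with quantile normalization). Paox, which oxidizes acetylated polyamines, was higher by 0.24 and Atp13a3, a polyamine transporter, by 0.20 (0.18 and not passed within slide 1), while Oaz2, an antizyme that turns ornithine decarboxylase over, was lower by 0.25 (-0.16 with normexp) and Sat2 by 0.18. That Sat2 call was lost with quantile normalization (-0.15), within slide 2 (-0.22), with the mean of its probes (-0.24) and without any of 4 single arrays (NASH CD11c-positive replicates 1, 2 and 3 and NASH CD11c-negative replicate 4, -0.15 to -0.17). Set against wildtype, NASH CD11c-positive cells had 11 higher and 4 lower (8 and 6 with quantile normalization), among them Eif5a at 0.91 (0.60 with quantile normalization), Paox at 0.76 (0.43), Sat2 at -0.995 and Slc18b1 at -1.20 (-0.74 with normexp).

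Of 12 genes for nitric oxide synthesis and its cofactor tetrahydrobiopterin, 6 were higher and 4 lower for NASH CD11c-negative against wildtype cells (4 and 5 with quantile normalization). Between the NASH groups 1 was higher and 9 were lower (1 and 10 with quantile normalization), with a median of -0.14. Gchfr, the feedback regulator of GTP cyclohydrolase, was lowest in NASH CD11c-positive, intermediate in NASH CD11c-negative and highest in wildtype cells, without overlap. Its level was -1.67 ± 0.0778 in NASH CD11c-positive, -0.63 ± 0.128 in NASH CD11c-negative and 0.72 ± 0.0826 in wildtype cells (SD, n = 5 each). It was 2.56-fold lower in NASH CD11c-negative than in wildtype cells (-1.35 ± 0.0604) and 2.05-fold lower in NASH CD11c-positive than in NASH CD11c-negative cells (-1.03 ± 0.0604).

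Gch1, GTP cyclohydrolase itself, was higher by 0.79 ± 0.0394 in NASH CD11c-negative and by 0.64 ± 0.0394 in NASH CD11c-positive than in wildtype cells (0.52 and 0.38 with quantile normalization, 0.51 and 0.37 with the mean of its probes). Qdpr, which regenerates the cofactor, was higher by 0.71 ± 0.206 and 0.86 ± 0.206 in the same comparisons. The wildtype arrays of Qdpr ran from 2.53 to 3.91, and without wildtype replicate 2 the first difference was 0.44, with the call kept. It did not pass with quantile normalization (0.42, limma adjusted p = 0.0764) or within slide 1 (0.91, limma adjusted p = 0.0513), and was 0.41 within slide 2. Nos3, the endothelial synthase, was lower by 0.74 ± 0.0373 in NASH CD11c-negative than in wildtype cells, where 10 of 12 sinusoidal endothelial markers were lower too. Ddah1, which breaks down a methylated arginine that inhibits the synthases, was lower in NASH CD11c-positive than in wildtype and in NASH CD11c-negative cells. Only 3 of 5, 2 of 5 and 4 of 5 arrays read Ddah1 well above background in NASH CD11c-positive, NASH CD11c-negative and wildtype cells, so the fitted differences of -1.33 and -0.74 (-0.51 and -0.43 with normexp) do not measure the size. Nos1 was not well above background on any array.

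Creatine is built from arginine and glycine, and the largest difference among the genes of the 5 lists was in its uptake. Slc6a8, the creatine transporter, averaged 3.04 ± 0.0268 in NASH CD11c-positive, 2.19 ± 0.0652 in NASH CD11c-negative and -0.55 ± 0.0700 in wildtype cells (SD, n = 5 each). It was 6.66-fold higher in NASH CD11c-negative than in wildtype cells (2.74 ± 0.0377) and 1.80-fold higher in NASH CD11c-positive than in NASH CD11c-negative cells (0.85 ± 0.0377). Gatm, which makes guanidinoacetate from arginine, was higher by 0.44 in NASH CD11c-negative than in wildtype cells (0.16 with quantile normalization) and lower by 0.22 in NASH CD11c-positive than in NASH CD11c-negative cells. Gamt, the next enzyme, was lower by 0.20 between the NASH groups, and higher by 0.22 in NASH CD11c-positive than in wildtype cells, which did not pass with quantile normalization (0.04). All 4 genes of the list, which also holds the creatine kinase Ckb, were higher in NASH CD11c-negative than in wildtype cells (3 higher and 1 lower with quantile normalization).

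**Figure D5:**
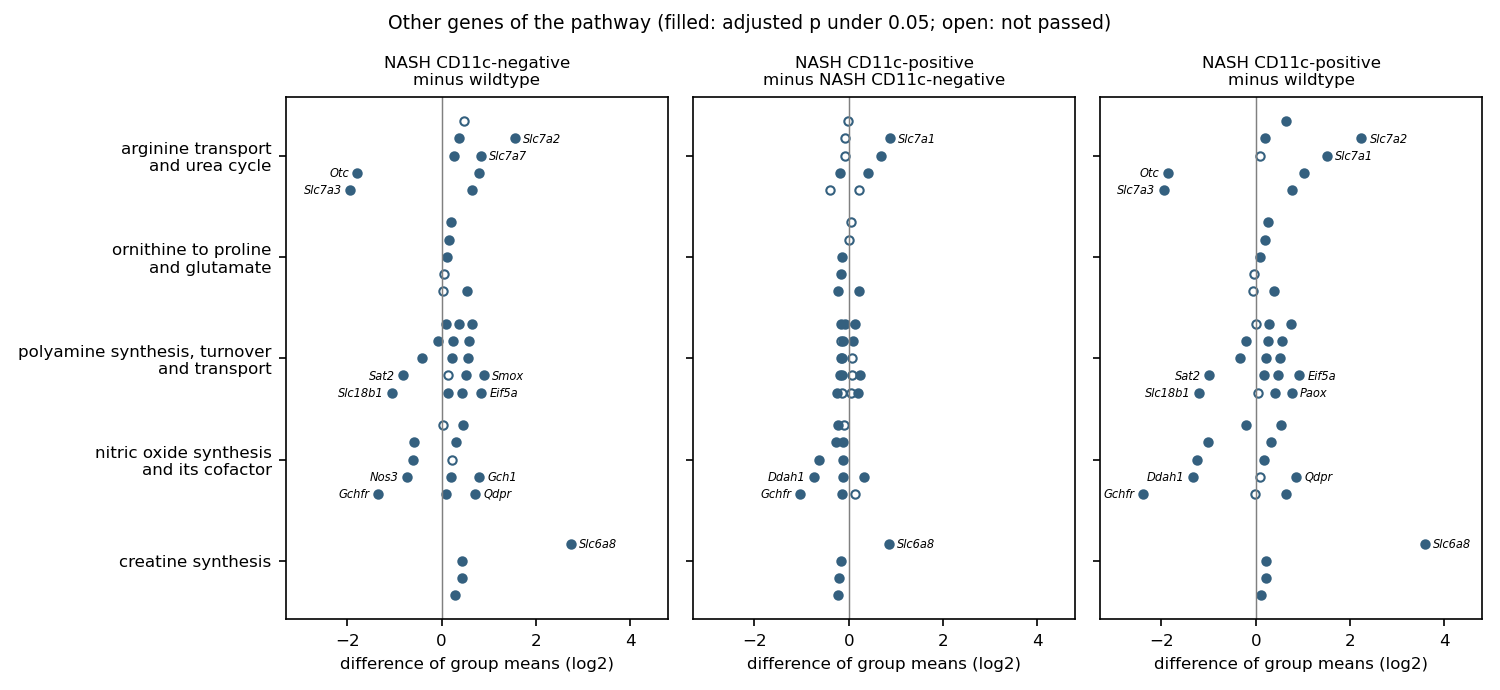
Difference of group means of the 48 other pathway genes measured (horizontal axis, log2) in 5 lists (vertical axis), in the 3 comparisons, filled where the limma adjusted p was under 0.05. Gene labels mark the larger differences among the genes named in the text. Slc6a8, Slc7a2 and Slc7a1 stand out upward and Gchfr downward, and the Slc7a3 points are fitted values of a probe that was not well above background in NASH cells.

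Known inducers of Arg1 in macrophages, which act in the interleukin-4 response and related pathways, were measured for 11 of 11 genes. Of these, 8 were higher and 3 lower for NASH CD11c-negative against wildtype cells (5 and 4 with quantile normalization). Pparg, a lipid-sensing nuclear receptor, was higher by 1.65 ± 0.0384 and Il4ra, the interleukin-4 receptor chain, by 0.86 ± 0.0873, while Irf4 and Klf4, transcription factors of alternative activation, were lower by 1.72 ± 0.0623 and 0.90 ± 0.0248. Between the NASH groups 4 were higher and 2 lower, with Irf4 at 0.60, Klf4 at 0.34, Cebpb at -0.34 and Il13ra1 at -0.25. Pparg was higher by 1.80 and Irf4 lower by 1.12 in NASH CD11c-positive than in wildtype cells. Irf4 averaged -0.41 in NASH CD11c-positive, -1.01 in NASH CD11c-negative and 0.71 in wildtype cells, and Klf4 averaged 2.74, 2.40 and 3.30. Both thus stayed below every wildtype array in both NASH groups, whereas the Arg1 arrays of NASH CD11c-positive and wildtype cells overlapped. A link of these genes to Arg1 was not tested. Shares over all genes were 48.3% higher and 28.5% lower for NASH CD11c-negative against wildtype cells, and 29.9% and 23.3% between the NASH groups.

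Of 10 known inducers of Nos2, 5 were higher and 4 lower for NASH CD11c-negative against wildtype cells (2 and 5 with quantile normalization). Ifngr2, a chain of the interferon gamma receptor, was higher by 0.67 (0.33 with quantile normalization) and Irf8 by 0.50 (0.05 and not passed with quantile normalization), while Irf1, which acts in the interferon response, was lower by 0.31 (-0.75 with quantile normalization). Between the NASH groups 3 were higher and 3 lower, with Jak2 at 0.45, Irf8 at 0.22, Irf1 at -0.37 and Ifngr2 at -0.21. In NASH CD11c-positive against wildtype cells 6 were higher and 3 lower (3 and 5 with quantile normalization). The shares of all genes higher and lower were 48.3% and 28.5%, 29.9% and 23.3%, and 51.4% and 26.3% in these 3 comparisons.

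Of 10 other genes of alternative activation, 3 were higher and 6 lower for NASH CD11c-negative against wildtype cells (1 and 6 with quantile normalization). Cd163, a scavenger receptor, was lower by 4.88 and Ccl17, a chemokine, by 3.26 ± 0.198, while Chil3, a chitinase-like protein that neutrophil precursors also express, was higher by 3.33 and Mgl2, a lectin, by 0.47 (0.0042 and not passed with quantile normalization). Between the NASH groups 4 were higher and 4 lower (5 and 4 with quantile normalization), with Ccl22 at least 3.5-fold higher and Ccl17 higher by 2.48 ± 0.198 in NASH CD11c-positive cells, and Ccl24 and Chil3 lower by 1.5 and 1.43. Ccl17 and Ccl22 are also made by dendritic cells, whose marker sum was higher in NASH CD11c-positive cells. Ccl22 passed the filter on dim probes only through the NASH CD11c-positive arrays, so its rise there is not independent of that filter. Shares over all genes were 48.3% higher and 28.5% lower for NASH CD11c-negative against wildtype cells, and 29.9% and 23.3% between the NASH groups.

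Of 8 measured genes of classical activation, 7 were higher and 1 lower for NASH CD11c-negative against wildtype cells (4 and 3 with quantile normalization). Socs3 was higher by 1.46 and Ptgs2, cyclooxygenase 2, by 1.10, and Il6 was lower by 1.70. Between the NASH groups 1 was higher and 6 were lower (1 and 7 with quantile normalization), with Il6 at -1.27, Cxcl10 at -0.62 and Ptgs2 at 0.16. Shares over all genes were 48.3% higher and 28.5% lower for NASH CD11c-negative against wildtype cells, and 29.9% and 23.3% between the NASH groups.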

How the data were processed

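The values were Agilent scanner intensities, 1 file per array, deposited by the authors. Per the file headers they were extracted with Feature Extraction 10.7.3.1, which subtracted background to give the processed signal. The log2 of that intensity minus each array's 75th percentile over the probes that are no control was used, and the authors' deposited table of log2 values was the same quantity minus the median of the wildtype arrays, to a median difference of 0.00152. Control spots and outlier spots (113 to 190 an array) were left out, repeated spots averaged, and probes kept where at least 4 of 5 arrays of a group were well above background (28175 probes, 13390 named genes, brightest probe per gene). Genes were named from RefSeq through the accession of each probe. limma 3.58.1 in R 4.3.3 fitted all 15 arrays, with Benjamini-Hochberg adjustment over all genes and a threshold of 0.05. It was tested on simulated data.

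Members and lists were chosen with earlier results of these data known. Named were all 7 genes, in each list and comparison the 2 largest rises and 2 largest falls past the threshold, the 3 genes nearest to any member spanning at least 1 log2, and the 2 brightest hepatocyte, neutrophil and macrophage markers. Some genes that this rule names are not reported here. A few further values of those genes, the genes too dim to be tested and Adgre1 were chosen after their values were seen. Alternatives were normexp with an offset of 50, quantile normalization, other filters, slide as a block and either slide on its own, a block for the replicate number, the compared groups alone, the mean of a gene's probes, the authors' deposited table and single arrays left out.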

Additional observations from a re-analysis of the deposited data

How the results depend on the processing

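Over 27 alternatives, 790 values for the 7 genes and for the counts of genes passing the threshold kept their direction and their side of it while 20 did not, and no count over both directions moved by more than 1.5 times. Counts in 1 direction did: for NASH CD11c-negative against wildtype cells, quantile normalization put 3 of the 7 genes upward and 2 downward (6 and 1 in the main processing), and of the 87 genes of the 9 lists by function 35 were higher (55). Quantile normalization turned Ass1 (-0.00049), Sat1 (-0.073), Oat (-0.054), Trf (-0.17) and Csf1r (-0.22) in NASH CD11c-negative against wildtype cells, Cd5l (0.12) between the NASH groups, and Sat1 (-0.24) and Trf (-0.27) in NASH CD11c-positive against wildtype cells. Against wildtype cells it lowered the share of higher calls to 48.5% in NASH CD11c-negative cells (62.9% in the main processing) and to 53.6% in NASH CD11c-positive cells (66.2%). Csf1r also turned (-0.23) when the probes of a gene were averaged. Calls lost in NASH CD11c-negative against wildtype cells were Arg2 with normexp (0.13) and quantile normalization (0.097) and Ass1 within slide 1 (0.11). Others lost were Asl between the NASH groups with quantile normalization (0.055) and within slide 1 (0.099) and Nos2 in NASH CD11c-positive against wildtype cells with normexp (0.11). Nos2 between the NASH groups, which passed in no setting, turned with slide as a block (0.012), within slide 1 (0.021), within slide 2 (0.0049) and with replicate block and slide (0.025), and ranged from -0.033 to 0.027 with single arrays left out. Arg1 in NASH CD11c-positive against wildtype cells passed with slide as a block (-0.15), with replicate block and slide (-0.17) and with the compared groups alone (-0.13), and ranged from -0.16 to -0.10 with single arrays left out. The main fit did not pair the arrays by replicate number. Of 15 same-number pairs 11 had a correlation over 0.1 (range -0.198 to 0.373, negative in the 2 pairs from different slides). When an array was set against the arrays of another group, its own number correlated best in 8 of 15 cases. These values do not settle whether the numbers pair the arrays. With the replicate block alone 7, 6 and 6 of the 7 genes passed and Arg1 stayed at -0.13 (limma adjusted p = 0.0523). The 3 counts over all genes were then 10738, 7956 and 10776, against 10280, 7120 and 10392 without the block, in the order NASH CD11c-negative against wildtype, between the NASH groups, and NASH CD11c-positive against wildtype. The cause of these changes was not tested. Under the filter on all 15 arrays Slc7a3, Otc, Slc18b1, Cd163, Ddah1 and Ccl22 had no value. Signal over background limits the genes with few arrays well above it, such as Otc and Ddah1.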
